A study of Mus musculus with 9 samples.

Results

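MHC class I antigen presentation was followed through 10 genes: the heavy chains H2-K1 and H2-D1, the light chain B2m, the peptide transporter subunits Tap1 and Tap2, the loading factor Tapbp, the immunoproteasome subunits Psmb8, Psmb9 and Psmb10, and the regulator Nlrc5. They were taken by symbol from the annotation of the array, which carries 23981 gene symbols in all. The 10 genes had 12 probe sets, of which 2 carried several symbols. H2-D1 was measured only by a probe set annotated to both H2-Q2 and H2-D1, so its values may hold signal of either gene. Tapbp had 3 probe sets, one of them shared with its neighbour Zbtb22.

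The cells were MYCCaP, an androgen-responsive mouse prostate cancer line known to come from a tumour driven by a MYC transgene under a prostate-specific probasin promoter. The parental line was grown in medium with the androgen dihydrotestosterone (DHT), and its 3 arrays are technical replicates of it. The other 6 arrays each hold a line derived from a recurrent tumour grown in a castrated mouse: 3 lines came from mice given vehicle and 3 from mice given AZD1208, an inhibitor of the PIM kinases, and all of them are labelled as without DHT. The recurrent lines therefore differ from the parental line in passage through a castrated host and in androgen at once, and these cannot be told apart. The age and strain of the mice, whether each line came from its own mouse and whether AZD1208 was present in culture could not be read from the labels. Total RNA was hybridised to Mouse Gene 2.0 ST arrays, and all values below are the deposited log2 intensities, on which a difference of 1 is a doubling.

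Class I molecules show short peptides from inside the cell to CD8+ T cells. Proteasomes cut proteins into peptides, the TAP transporter carries these into the endoplasmic reticulum, and tapasin (Tapbp) holds the empty heavy chain with B2m at the transporter until a peptide binds. Interferon raises most of these genes together through IRF factors, Nlrc5 acts on the heavy chain and B2m promoters, and loss of the pathway is a known way for tumours to escape T cells.

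The labelled cell type was checked against marker genes. Cldn3, a tight junction gene of epithelia, lay between 11.65 and 12.43 and the keratin Krt8 between 8.24 and 10.44, while Epcam did not exceed 5.06 in any sample. Of the 8 epithelial genes with a probe set of their own, 4 stayed under a log2 value of 8 in every sample (Epcam, Cdh1, Krt18 and Krt14), and Krt19 was at 8.29 in the parental line and between 6.59 and 6.96 in the 6 lines. All 19 leukocyte, 8 endothelial and 9 class II genes with a probe set of their own stayed under 8 in every sample, and the mean of the leukocyte list ranged from 5.98 to 6.21. Within that list Lyz2 and Adgre1 varied most. Lyz2 was at 7.10 in vehicle 1, 6.97 in vehicle 2 and 6.42 in AZD1208 2, against 5.18 in the parental line and 4.74 to 5.18 in the other lines. Adgre1 was at 6.22 in vehicle 1 and 6.54 in vehicle 2, against 5.61 in the parental line and 5.38 to 5.81 in the other lines. The mean of the 10 fibroblast and mural genes was 7.51 in the line AZD1208 2 and 6.45 to 6.77 in the other lines. In that line the smooth muscle actin gene Acta2 was at 11.87, against 7.05 to 7.998 in the other 5 lines, and Pdgfrb was at 9.78, against 6.49 to 7.22. The collagen gene Col1a1 was at 7.33, within their range of 7.06 to 7.47, and Thy1 was at 6.82, the lowest of the 6 lines. Dcn was at 6.68 in AZD1208 2, against 5.30 to 5.83 in the other 5 lines. Pdgfra was at 7.47 in the parental line and between 8.24 and 10.03 in the 6 lines, highest in vehicle 1. Array medians lay between 6.22 and 6.36, and AZD1208 3 had the narrowest interquartile range (2.87, others 2.98 to 3.12). AZD1208 2 and AZD1208 3 had the lowest array quality weights (0.579 and 0.344).

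No member of the pathway passed the test in any comparison, with limma's moderated test and Benjamini-Hochberg adjustment over the 17734 probe sets tested, all 12 member probe sets among them. No other probe set passed either: 0% were called for AZD1208 against vehicle, 0% for recurrent against parental lines, 0% for vehicle against parental and 0% for AZD1208 against parental. Unadjusted p was under 0.05 for 97 probe sets in the first of these, for 463 in the second, for 393 in the third and for 445 in the fourth, and for 0 members in any. These are 0.547%, 2.61%, 2.22% and 2.51% of all probe sets tested, each a smaller share than the threshold of 0.05 itself. With shares so small, 0 among 10 members is no result about the pathway. Between AZD1208 and vehicle lines 9 of 10 members had a higher mean in the AZD1208 lines, with a median log2 difference of 0.15, while 45.3% of all probe sets tested were higher, with a median of −0.02. That count rested on 1 line: without AZD1208 2, 5 members were higher and 5 lower, with a median of 0.01. It was 7 against 3 without vehicle 1, and 6 against 4 with array quality weights. Between recurrent and parental lines 4 members were higher and 6 lower, with a median of −0.04 beside −0.02 for all probe sets. Taken apart, vehicle lines had 2 members higher and 8 lower than parental, with a median of −0.10, where 46.2% of all probe sets were higher, and AZD1208 lines had 5 higher and 5 lower, with a median of 0.02. These comparisons share the parental sample.

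**Figure D1:**
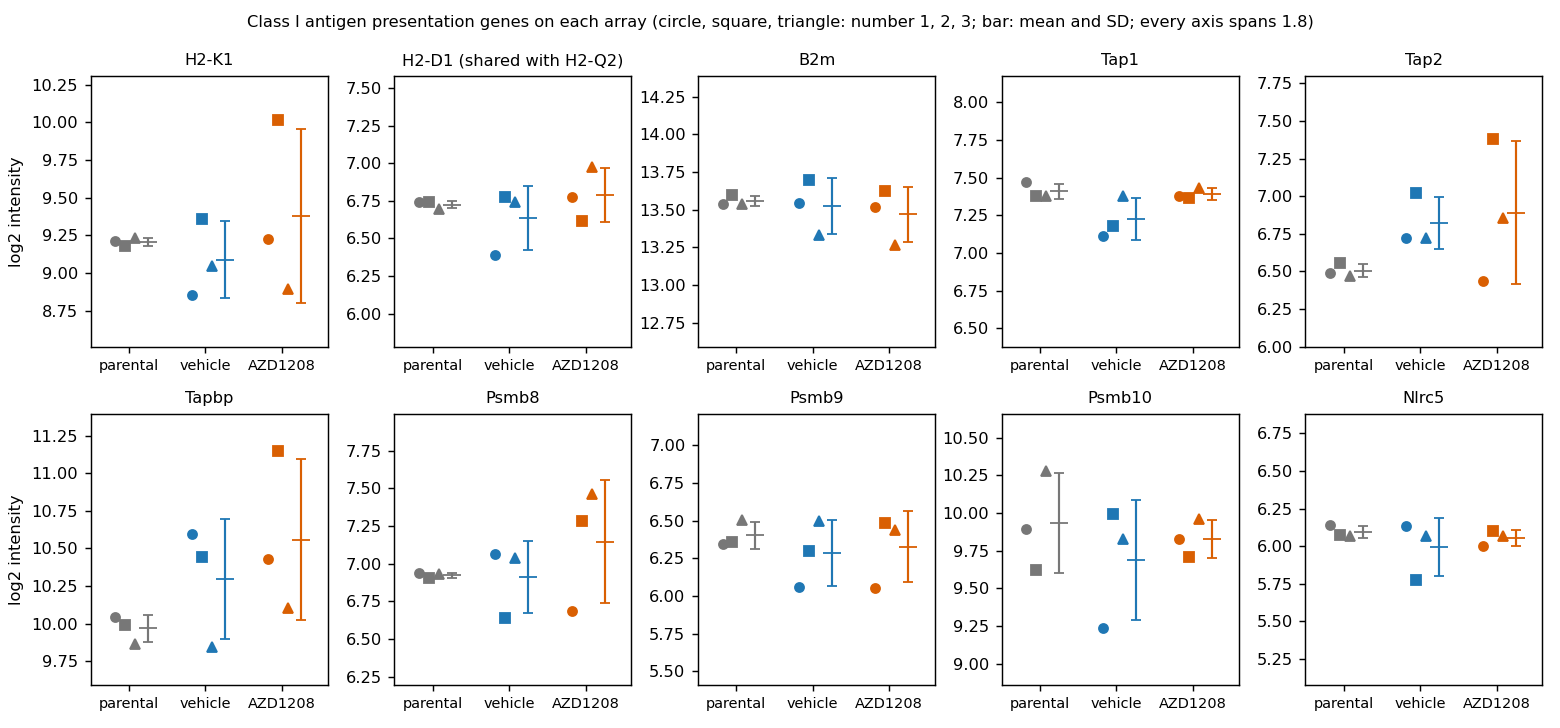
Log2 intensity of the 10 genes on each of the 9 arrays, 1 panel a gene, with the parental arrays in grey, vehicle lines in blue and AZD1208 lines in orange; circle, square and triangle mark numbers 1, 2 and 3, and the bar gives the mean and SD of 3 values. The vehicle and AZD1208 points overlap in all 10 panels, and AZD1208 2 (orange square) is the highest point for H2-K1, Tap2 and Tapbp.

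H2-K1 encodes one of the classical heavy chains, the subunit that holds the peptide (probe set 17343710). The parental arrays read 9.21, 9.18 and 9.23. The vehicle lines 1, 2 and 3 read 8.86, 9.36 and 9.05, and the AZD1208 lines 1, 2 and 3 read 9.23, 10.02 and 8.89. The groups overlapped: AZD1208 2 stood above every other sample, at 1.75-fold the parental mean, and AZD1208 3 was the second lowest of the 6 lines. AZD1208 lines exceeded vehicle lines by 0.29 ± 0.30 (SE, n = 3 lines a group; 95% interval −0.41 to 0.99; limma adjusted p = 1), and without AZD1208 2 the difference was −0.03. Recurrent lines differed from parental by 0.03 ± 0.39 (SE; limma adjusted p = 1).

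The probe set of H2-D1, another classical heavy chain, and of H2-Q2, a class I gene of the Q region, is 17337065. It read 6.74, 6.74 and 6.70 on the parental arrays, 6.39, 6.78 and 6.74 in the vehicle lines and 6.78, 6.62 and 6.97 in the AZD1208 lines. Vehicle 1 was the lowest and AZD1208 3 the highest of the lines. The difference between AZD1208 and vehicle lines was 0.15 ± 0.18 (SE; 95% interval −0.26 to 0.56; limma adjusted p = 1). It was 0.0296 without vehicle 1 and 0.0606 without AZD1208 3. H2-K1 and this probe set lay on the same side of their parental means in 3 of 6 lines. The deviations of this probe set in vehicle 3 and of H2-K1 in AZD1208 1 were smaller than their SD between technical arrays, so their sides are not resolved there. AZD1208 2, the line with the highest H2-K1, was the second lowest for the H2-D1 probe set, and AZD1208 3 showed the opposite pair of ranks.

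B2m, the light chain that every classical class I molecule needs (probe set 17375373), read 13.54, 13.60 and 13.54 on the parental arrays. It read 13.54, 13.70 and 13.33 in the vehicle lines and 13.52, 13.63 and 13.27 in the AZD1208 lines. In both recurrent groups line 2 was the highest and line 3 the lowest, and the means of the groups differed by −0.05 ± 0.17 (SE; 95% interval −0.45 to 0.35; limma adjusted p = 1), or by 0.05 without AZD1208 3. These values are near the top of the scale, whose maximum was 14.4 over all probe sets, and whether differences are compressed there was not tested. H2-K1 and B2m lay on the same side of their parental means in 5 of 6 lines. B2m in vehicle 1 and H2-K1 in AZD1208 1 deviated by less than their SD between technical arrays, so their sides are not resolved there.

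The promoters of these genes are printed because they hold the elements through which interferon, NF-kappaB and the Nlrc5 complex are known to act. The windows are from RefSeq (GRCm38.p6, the C57BL/6J reference), 250 bases before to 50 bases after each start; 8 of the 10 members had one, and none was at hand for Tap2 and Nlrc5. MYCCaP is known to derive from the FVB strain, which carries other class I alleles than the reference, and how well the array's probes or these sequences match them was not tested. Capitals mark matches, read on both strands, to the interferon response forms GAANNGAAA and GAAANNGAA, the NF-kappaB form GGGNNTTCC, the core TGACG of the X2 element and the CCAAT box. No match overlaps another. The stretches are H2-D1 at chr17:35262913-35263033 on the plus strand, H2-K1 at chr17:34000429-34000458 on the minus strand and B2m at chr2:122147538-122147648 on the plus strand.

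H2-D1: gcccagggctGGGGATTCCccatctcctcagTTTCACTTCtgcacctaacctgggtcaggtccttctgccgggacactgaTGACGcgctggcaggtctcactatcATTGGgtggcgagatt

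H2-K1: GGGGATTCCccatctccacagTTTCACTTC

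B2m: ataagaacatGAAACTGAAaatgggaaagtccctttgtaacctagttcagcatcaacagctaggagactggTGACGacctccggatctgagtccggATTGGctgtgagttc

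The stretch from the NF-kappaB form to the interferon form was identical between H2-K1 and H2-D1 at 29 of 30 positions, and over the 121 bases printed for H2-D1 the aligned H2-K1 sequence was identical at 108. So the heavy chain genes share these elements in the reference. Whether the elements bear on their values across the 6 lines was not tested, and the H2-D1 probe set may hold signal of H2-Q2. GAANNGAAA was found in 7.52% of the 32851 windows in the table and, among members, in H2-K1 and H2-D1. GAAANNGAA was found in 8.56% and, among members, in B2m. GGGNNTTCC was found in 5.82% of windows and, among members, in H2-K1 and H2-D1. TGACG was in 20.8% of windows and in those of B2m, H2-K1, H2-D1, Tap1 and Psmb9, and CCAAT was in 37.4% and in those 5 and Tapbp. A match describes letters in a window and does not show that a factor binds there.

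Tap1 and Tap2 form the transporter that moves peptides into the endoplasmic reticulum. Tap1 (probe set 17336432) read 7.47, 7.38 and 7.38 on the parental arrays, 7.11, 7.18 and 7.38 in the vehicle lines and 7.38, 7.36 and 7.43 in the AZD1208 lines. Vehicle 1 and vehicle 2 lay below all other samples, and vehicle 3 lay within the AZD1208 range. The difference of 0.17 ± 0.14 (SE; 95% interval −0.17 to 0.50) had an unadjusted limma p of 0.279 and an adjusted p of 1. Among the 12 member probe sets, only Tapbp probe set 17343675 had a smaller unadjusted limma p for AZD1208 against vehicle, 0.233. The value was the same on 4 of the 9 arrays. Such equal values occurred on at least 2 arrays for 6 of the 10 members and for 31.2% of all probe sets tested, and the SD of such a probe set can be too small.

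Tap2 (probe set 17336458) behaved otherwise. It read 6.49, 6.55 and 6.47 on the parental arrays, 6.72, 7.02 and 6.72 in the vehicle lines and 6.44, 7.38 and 6.85 in the AZD1208 lines. All lines but AZD1208 1 stood above the 3 parental arrays, and AZD1208 2 was the highest, at 1.84-fold the parental mean. Recurrent lines exceeded parental by 0.35 ± 0.33 (SE; 95% interval −0.43 to 1.13; limma adjusted p = 1), or by 0.23 without AZD1208 2. AZD1208 and vehicle lines differed by 0.07 ± 0.25 (SE; limma adjusted p = 1), and by −0.18 without AZD1208 2. The 2 subunits of the transporter lay on the same side of their parental means in 2 of 6 lines. Tap1 stood within 0.05 of its parental mean in vehicle 3 and the AZD1208 lines, no more than its SD of 0.05 between technical arrays. Its side is not resolved there, so this count says little.

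Tapbp encodes tapasin, which bridges the transporter and the empty class I molecule. Its brightest probe set (17336228) read 10.05, 9.99 and 9.87 on the parental arrays, 10.60, 10.44 and 9.84 in the vehicle lines and 10.43, 11.14 and 10.11 in the AZD1208 lines. Here 5 of 6 lines stood above all parental arrays and vehicle 3 stood below them. AZD1208 2 was again the highest, at 2.26-fold the parental mean, the largest departure of any member in any line. Recurrent lines exceeded parental by 0.46 ± 0.41 (SE; 95% interval −0.51 to 1.43; unadjusted p = 0.302 and adjusted p = 1, limma), or by 0.31 without AZD1208 2. AZD1208 exceeded vehicle lines by 0.26 ± 0.31 (SE; limma adjusted p = 1), and the difference was −0.03 without AZD1208 2.

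The other Tapbp probe sets gave smaller differences. Probe set 17343675 read 7.93, 7.99 and 8.03 on the parental arrays, 8.04, 8.04 and 7.84 in the vehicle lines and 8.43, 8.09 and 8.04 in the AZD1208 lines, with AZD1208 1 the highest. There too 5 lines stood above all parental arrays and vehicle 3 below them, but 3 of these 5 read 8.04 against a highest parental value of 8.03. The one shared with Zbtb22 (17343672) read 7.77, 7.71 and 7.90 on the parental arrays, 7.81, 7.87 and 7.76 in the vehicle lines and 7.62, 7.64 and 7.92 in the AZD1208 lines. Recurrent lines differed from parental by 0.10 ± 0.22 and −0.03 ± 0.20 (SE; limma adjusted p = 1 for both) on these. The probe sets thus disagreed on the size of the Tapbp difference, and which transcripts each one measures could not be read from the annotation.

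The immunoproteasome subunits replace the constitutive catalytic subunits of the proteasome and change which peptides it cuts. Psmb8 (probe set 17336446) read 6.94, 6.90 and 6.93 on the parental arrays, 7.06, 6.64 and 7.04 in the vehicle lines and 6.68, 7.29 and 7.46 in the AZD1208 lines. AZD1208 2 and AZD1208 3 were the 2 highest samples, but AZD1208 1 was lower than all samples except vehicle 2. The difference between the recurrent groups was 0.23 ± 0.24 (SE; 95% interval −0.33 to 0.79; limma adjusted p = 1), 0.07 without AZD1208 3 and −0.01 with array quality weights.

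Psmb9 (probe set 17343789) read 6.34, 6.36 and 6.51 on the parental arrays, 6.06, 6.30 and 6.50 in the vehicle lines and 6.05, 6.49 and 6.44 in the AZD1208 lines. Line 1 of each recurrent group was the lowest sample of its group, and the groups otherwise overlapped, with a difference of 0.04 ± 0.19 (SE; limma adjusted p = 1). Psmb8 and Psmb9 lay on the same side of their parental means in 5 of 6 lines, but Psmb9 deviated by less than its SD between technical arrays, 0.09, in AZD1208 2 and AZD1208 3. Psmb9 and Tap1 are transcribed in opposite directions from neighbouring starts, 225 bases apart in the RefSeq reference, so this stretch is promoter to both. It is printed from the Psmb9 side to the Tap1 side (chr17:34187331-34187555, plus strand), with the CCAAT box and TGACG in capitals, and neither interferon form was found in it.

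Tap1 and Psmb9: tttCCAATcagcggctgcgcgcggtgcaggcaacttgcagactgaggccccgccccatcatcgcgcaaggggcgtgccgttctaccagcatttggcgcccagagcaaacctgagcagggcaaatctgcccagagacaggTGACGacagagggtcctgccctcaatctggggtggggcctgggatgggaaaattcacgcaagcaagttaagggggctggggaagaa

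Across the lines Tap1 and Psmb9 lay on the same side of their parental means in 4 of 6. The side of Tap1 was not resolved in vehicle 3 and the AZD1208 lines, nor that of Psmb9 in AZD1208 2 and AZD1208 3. Both were low in vehicle 1, by −0.30 for Tap1 and −0.35 for Psmb9. AZD1208 1 set them apart, with Tap1 at −0.03 and Psmb9 at −0.35 from the parental mean.

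Psmb10 (probe set 17512554) read 9.90, 9.62 and 10.28 on the parental arrays, 9.24, 9.99 and 9.82 in the vehicle lines and 9.82, 9.71 and 9.96 in the AZD1208 lines. By SD its technical arrays spread more than its lines did, though by range less, 0.66 against 0.76. Only vehicle 1 lay outside the range of the technical arrays. The SD was 0.33 over the 3 technical arrays and 0.28 over the 6 lines, so the difference of −0.17 ± 0.29 (SE; limma adjusted p = 1) between recurrent and parental lines was smaller than the SD between technical arrays. It was −0.0003 without parental array 3, −0.33 without parental array 2 and −0.0626 without vehicle 1. The 3 constitutive subunits that these replace had lower means in the recurrent than in the parental line, by −0.07 ± 0.21 for Psmb5, −0.13 ± 0.23 for Psmb6 and −0.13 ± 0.21 for Psmb7 (SE; limma adjusted p = 1 for each). Between AZD1208 and vehicle lines they differed by 0.06, 0.05 and −0.06.

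Nlrc5, the transactivator of class I genes (probe set 17504023), read 6.14, 6.08 and 6.07 on the parental arrays, 6.13, 5.77 and 6.07 in the vehicle lines and 5.998, 6.10 and 6.07 in the AZD1208 lines. All samples except vehicle 2 lay between 5.998 and 6.14. The values lie just above 5.77, the mean under which probe sets were left out as dim. The recurrent groups differed by 0.06 ± 0.15 (SE; 95% interval −0.30 to 0.43; limma adjusted p = 1).

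**Figure D2:**
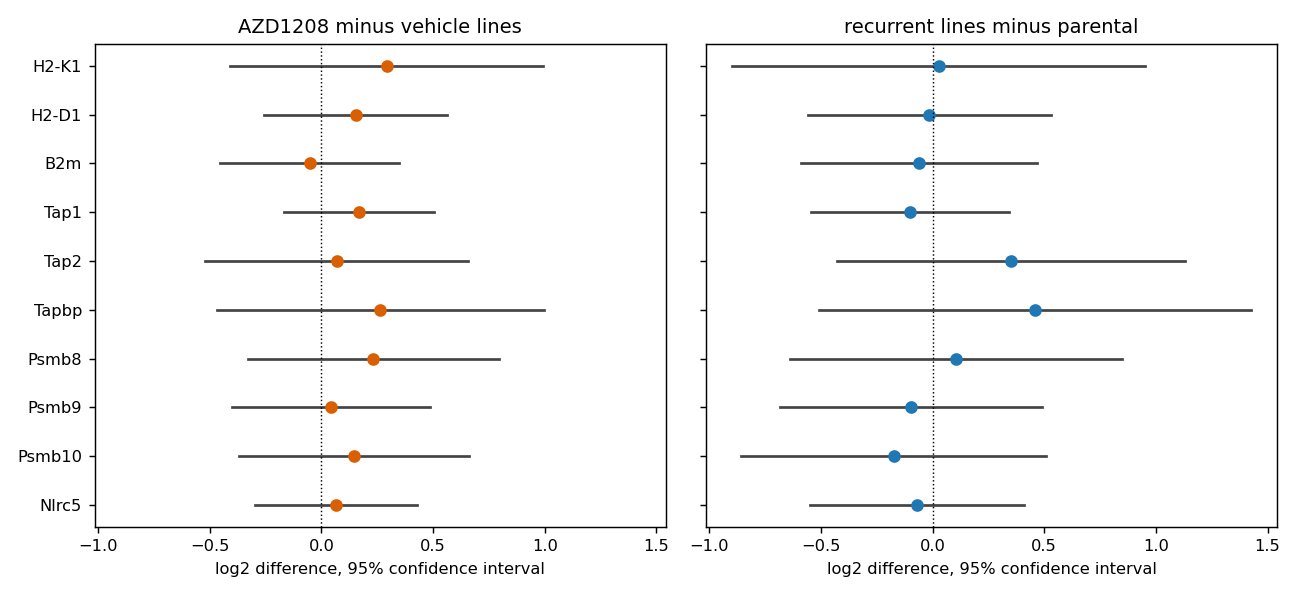
Log2 difference (point) and 95% confidence interval (line) of the 10 genes for AZD1208 minus vehicle lines on the left and recurrent lines minus parental on the right. Every interval includes 0, and the points range from −0.05 (B2m) to 0.29 (H2-K1) on the left and from −0.17 (Psmb10) to 0.46 (Tapbp) on the right.

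The intervals show what the design could not resolve. For AZD1208 against vehicle the widest reached 0.99 for both H2-K1 and Tapbp, close to a doubling, and the narrowest, that of Tap1, ran from −0.17 to 0.50. The lone parental sample gives the comparisons with it no spread of their own. Their intervals rest on the assumption that it varies like the recurrent lines.

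The members differed in how far the lines stood apart from each other. The median SD over members was 0.04 between technical arrays and 0.24 between the 6 lines, beside 0.09 and 0.23 for all probe sets tested. Psmb8 and H2-K1 had the largest ratio of line to technical SD, 19.8 and 16.1, and Psmb10 the smallest, 0.83. The SD of Tapbp over the lines, 0.44, was at the 87.8th percentile of all probe sets tested, that of H2-K1, 0.43, at the 86.8th, and that of Tap1, 0.13, at the 12.9th. No member had all AZD1208 lines above all vehicle lines, a pattern shown by 1.42% of all probe sets, and none had them all below, shown by 1.95%. No member had all 6 lines above the parental mean, which held for 11.5% of probe sets, and none had all 6 below, which held for 10.7%.

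**Figure D3:**
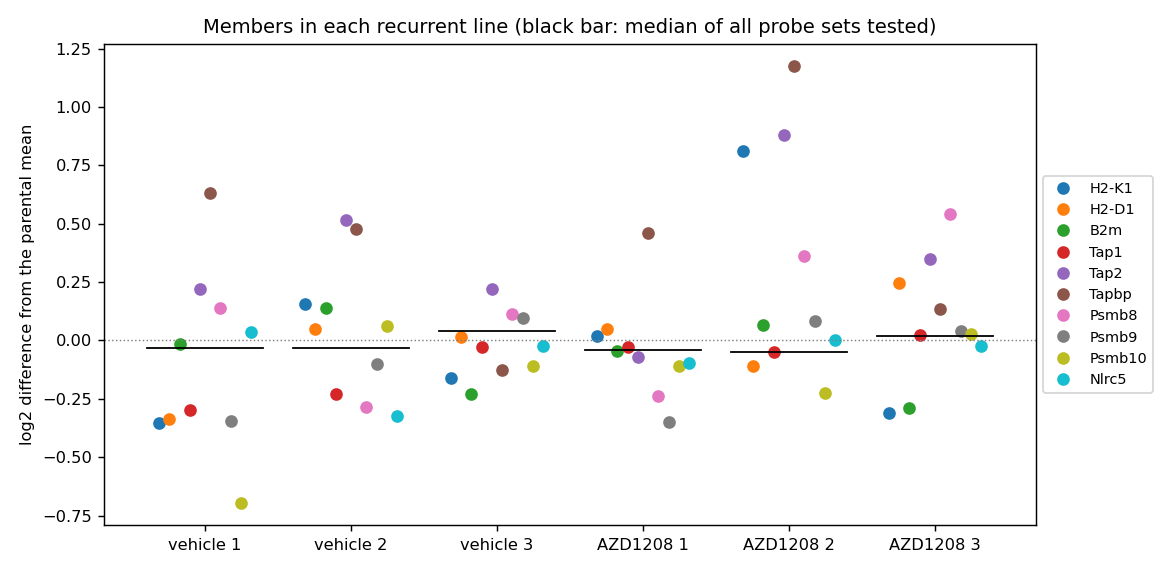
Log2 difference of each member from the parental mean in each recurrent line, 1 colour a gene; the black bar is the median of all probe sets tested in that line. Tapbp (1.18), Tap2 (0.88) and H2-K1 (0.81) stand highest in AZD1208 2, and the lowest point is Psmb10 in vehicle 1 (−0.70).

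Line by line, the pathway did not move as a block. AZD1208 2 had 7 members above the parental mean and 3 below, and it was the highest of the lines for H2-K1, Tap2 and Tapbp, 3 of 10 members, where 17.6% of all probe sets were highest in that line. Tap1, Psmb10 and the H2-D1 probe set were not among them, at −0.05, −0.23 and −0.11 from the parental mean. AZD1208 3 also had 7 members above, led by Psmb8 at 0.54, with H2-K1 at −0.31 and B2m at −0.29. Of all probe sets 53.0% were above the parental mean in AZD1208 3, beside 43.8% in AZD1208 2. AZD1208 3 was the highest line for 3 of 10 members, near the 27.8% of all probe sets that were highest in it. Vehicle 1 was the lowest line for 4 of 10 members (H2-K1, the H2-D1 probe set, Tap1 and Psmb10), where 17.0% of all probe sets were lowest in that line, although its Tapbp was at 0.63. AZD1208 1 had 3 members above and 7 below, where 42.2% of all probe sets were above, and vehicle 3 stayed within 0.23 of the parental mean for all 10. Acta2 and Pdgfrb were high in AZD1208 2 as well, Col1a1 was not, and their part in its member values was not tested.

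The genes most like the members were found by correlation with the mean of the 10 standardized members over 7 samples (the parental mean and 6 lines). C030013C21Rik had a Pearson correlation of 0.98, the RNA-binding protein gene Rbms2 0.97, and Ceacam2, Plp2 and Paqr4 0.96 each. These are the 5 highest over few samples among those of the 17734 probe sets that carry 1 symbol and no member, counted once a gene. AZD1208 2 is the highest sample for all 5. C030013C21Rik lay between 5.80 and 6.16, near the dim limit of 5.77. The members themselves followed this mean, which contains each of them, unevenly, from 0.76 for Psmb9 and 0.74 for H2-K1 to 0.10 for Nlrc5 and 0.02 for B2m. With the mean of the other members alone the correlations were 0.64 for Psmb9, 0.62 for H2-K1, −0.12 for Nlrc5 and −0.20 for B2m. The mean thus stands for some members and not for others. These correlations are a description only.

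The receptors and factors that act on the pathway gave 0 calls among 25 tested genes, with 14 higher and 11 lower in AZD1208 than in vehicle lines and a median difference of 0.01. Ifnar1 and Ifnar2 encode the type I interferon receptor. Ifnar1 was at 9.78 in the parental line, 10.07, 10.29 and 10.23 in the vehicle lines and 10.34, 10.85 and 10.11 in the AZD1208 lines. All 6 lines exceeded the parental mean, the pattern of 11.5% of probe sets, by 0.53 ± 0.28 on average (SE; unadjusted p = 0.0961 and adjusted p = 1, limma). Ifnar2 was at 9.91 in the parental line, 9.97, 10.14 and 10.02 in the vehicle lines and 10.69, 11.24 and 9.97 in the AZD1208 lines, so AZD1208 1 and 2 stood above the rest and AZD1208 3 did not.

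Ifngr2, a chain of the interferon gamma receptor, is named because of its value in AZD1208 2 and was chosen after its values were seen. It was at 8.06 in the parental line, 8.56, 9.19 and 8.16 in the vehicle lines and 8.55, 11.08 and 8.67 in the AZD1208 lines. The recurrent groups differed by 0.80 ± 0.66 (SE; limma adjusted p = 1), and by −0.0215 without AZD1208 2. Irf2, which binds interferon response elements, lay above the parental value of 8.95 in all 6 lines (9.20 to 9.43). Rfx5, which binds class I and class II promoters, lay above its parental value of 7.82 in all 6 lines (7.97 to 8.54), and Socs3, an inhibitor of cytokine signalling, lay below 8.80 in all 6 (7.68 to 8.62). Their differences of 0.37 ± 0.19, 0.46 ± 0.25 and −0.51 ± 0.34 (SE) all had a limma adjusted p of 1. Over all probe sets tested, all 6 lines lay above the parental mean for 11.5% and below it for 10.7%. Irf2, Rfx5 and Socs3 were named for a small unadjusted p within their list, which favours such patterns.

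Genes induced by interferon were described in the same way. Of 31 tested, 19 had a higher and 12 a lower mean in recurrent than in parental lines, with a median difference of 0.12 beside −0.02 for all probe sets, and 0 were called. Ifi27 was at 7.18 in the parental line and between 7.97 and 9.10 in the 6 lines, a difference of 1.29 ± 0.48 (SE; unadjusted p = 0.0293 and adjusted p = 1, limma). The GTPase gene Irgm2 was at 5.80 and between 6.30 and 6.88, a difference of 0.72 ± 0.25 (SE; unadjusted p = 0.0216 and adjusted p = 1, limma). Others of the list stood the other way: Isg15 was at 6.15 in the parental line and between 5.56 and 6.06 in the lines. All 6 lines thus lay above the parental value for Ifi27 and Irgm2 and below it for Isg15, patterns of 11.5% and 10.7% of all probe sets tested. The Isg15 values and the parental value of Irgm2 lie near 5.77, the mean under which probe sets were left out as dim. For AZD1208 against vehicle lines 21 were higher and 10 lower, with a median of 0.04. Oasl2 and the chemokine gene Cxcl10 differed by 0.45 ± 0.24 and 0.33 ± 0.19 (SE; limma adjusted p = 1 for both), and both were highest in AZD1208 2, at 6.77 and 7.04. Without that line the differences were 0.25 and 0.16.

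**Figure D4:**
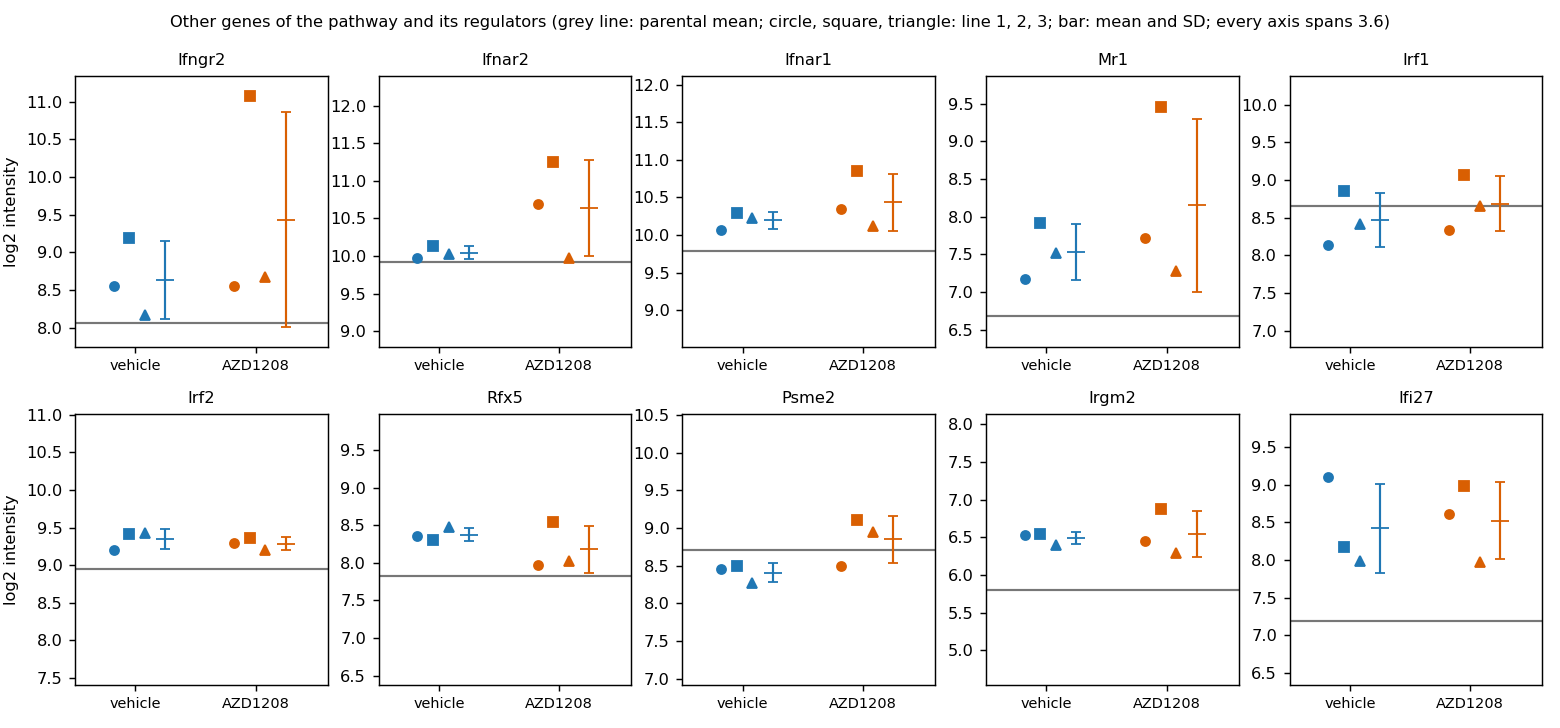
Log2 intensity of 10 interferon receptor, regulator, class I-like, processing and interferon-induced genes in the 3 vehicle (blue) and 3 AZD1208 lines (orange), with the parental mean as a grey line and the mean and SD of each group as a bar; panels were chosen after the values were seen. Ifnar1, Mr1, Irf2, Rfx5, Irgm2 and Ifi27 lie above the parental line in all 6 lines, the pattern of 11.5% of probe sets, and AZD1208 2 (square) stands apart for Ifngr2 and Mr1.

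Of 12 other genes of peptide processing and loading, 3 were higher and 9 lower in AZD1208 than in vehicle lines, with a median of −0.10 and 0 calls. Psme2, a subunit of the proteasome activator that interferon induces, was at 8.71 in the parental line, 8.45, 8.50 and 8.27 in the vehicle lines and 8.50, 9.11 and 8.95 in the AZD1208 lines. All AZD1208 lines stood above all vehicle lines, the pattern of 1.42% of probe sets, though AZD1208 1 was level with vehicle 2 at 2 decimals, with a difference of 0.44 ± 0.19 (SE; unadjusted p = 0.0537 and adjusted p = 1, limma). Its partner Psme1 was at 9.58 in the parental line, 8.62, 9.52 and 9.17 in the vehicle lines and 9.45, 9.15 and 9.58 in the AZD1208 lines, and the groups overlapped. Psme3, a subunit of another activator, differed by −0.23 ± 0.16 (SE; limma adjusted p = 1) between the recurrent groups. Erap1, which trims peptides in the endoplasmic reticulum, ranged from 7.55 in AZD1208 3 to 8.90 in AZD1208 2, with 7.86 in the parental line.

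Among 25 other class I and class I-like heavy chain genes, 16 had a probe set of their own, 8 only shared ones and 1 none, and 9 were tested, 6 higher and 3 lower in AZD1208 than in vehicle lines with 0 calls. For H2-M5 all AZD1208 lines (7.06 to 7.34) stood above all vehicle lines (6.96 to 7.03), the pattern of 1.42% of probe sets, with a difference of 0.19 ± 0.14 (SE; limma adjusted p = 1), or 0.11 without AZD1208 3. Mr1, which presents vitamin metabolites to MAIT cells, was at 6.69 in the parental line, 7.17, 7.92 and 7.51 in the vehicle lines and 7.72, 9.46 and 7.27 in the AZD1208 lines. All 6 lines lay above the parental mean, the pattern of 11.5% of probe sets, by 1.16 ± 0.71 on average (SE; 95% interval −0.50 to 2.81; limma adjusted p = 1). H2-Q4 was at 7.03 in the parental line and between 6.54 and 7.14 in the lines. Class II genes gave 5 higher and 1 lower of 6 tested in AZD1208 than in vehicle lines, and 0 calls. H2-DMa, which loads peptides onto class II molecules, was highest in AZD1208 1 at 7.83, and Ciita, the class II transactivator, lay between 6.59 and 7.14.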

How the data were processed

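The values are log2 intensities per probe set as deposited by the authors; per the submitters' processing notes they used oligo (version and normalization not given in the sources used here, as with its other steps). The number of arrays limits the precision, and the values hold no detection calls. Of 41345 probe sets, 23521 had 1 gene symbol in the platform annotation, 1814 several and 16010 none listed. The 25335 annotated probe sets were used, those with several symbols included, and the 30% with the lowest mean were left out (limit 5.77). The 3 parental arrays were averaged to 1 sample, and a linear model with a term for group alone was fitted to the 7 samples (limma 3.58.1, R 4.3.3; 4 residual and 3.32 prior degrees of freedom), a threshold of 0.05 on the adjusted p and 95% intervals. The procedure was tested on simulated data. P-values measure only the spread between these lines, and the parental comparisons have that sample in common.

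The members and gene lists were chosen with earlier results of these data known. Named were all members with every probe set, the constitutive catalytic subunits, of each list up to 4 genes a comparison with the smallest unadjusted p, and the 5 genes most correlated with the members; others are marked as chosen after their values were seen. For a listed gene with several probe sets, the brightest with that symbol alone was used. Deviations of same-numbered vehicle and AZD1208 lines from their group means correlated at 0.12, 0.11 and 0.52 for numbers 1, 2 and 3. Vehicle 1 and AZD1208 2 correlated at 0.27, and no label states a pairing. Pairing by number is therefore not established, and the main fit has no term for it. The fit with the number as a block was an alternative, beside other normalizations, filters, weights, a gene table and each array left out in turn. Promoter windows and names came from RefSeq (GRCm38.p6).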

Additional observations from a re-analysis of the deposited data

Results flagged for a closer look

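Among 57 probe sets examined over the 6 recurrent lines (the members, the genes named by rule and Ifngr2), 5 had 1 line far from the others (a gap over the group's range above Dixon's 95% critical value), and chance alone flags about 1 in 20 such groups. Genes named by rule were picked from these same values, mostly by a small unadjusted p within their list, and the 6 lines pool vehicle and AZD1208 lines. That rate therefore does not hold for them, and their flags are a description only. Ifngr2 was put in because of its value in AZD1208 2, so its flag is no test either. The type I interferon receptor gene Ifnar1 was at 10.85 in AZD1208 2, against 10.07 to 10.34 in the other 5 lines. The interferon gamma receptor gene Ifngr2 was at 11.08 in AZD1208 2, against 8.16 to 9.19. The class I-like gene Mr1 was at 9.46 in AZD1208 2, against 7.17 to 7.92. The class I gene H2-T24 was at 6.81 in AZD1208 3, against 6.10 to 6.27. The interferon regulatory factor gene Irf8 was at 6.40 in vehicle 2, against 6.73 to 6.86, and 3 arrays held the same value for it. No member of the pathway was among the 5.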

How the results depend on the processing

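The 48 member differences (12 probe sets in 4 comparisons) were recomputed under 18 alternatives. Of 760 values 720 kept their direction and none passed the threshold (smallest limma adjusted p 0.4), while 40 values of 25 differences changed direction. The filters, the intensity trend, the gene table and the block leave a difference unchanged by design. Leaving out a line of a group that is not compared does so too. The count of kept directions therefore says little about stability. The fit with the number as a block gave 0 calls and changed no call. The difference of Tapbp stayed at 0.26, as a balanced block cannot change a difference. Counting the technical parental arrays as 3 samples raised the calls over all probe sets from 0 to 40 for vehicle against parental, 43 for AZD1208 against parental and 155 for recurrent against parental, since array noise then stands in for part of the spread between lines; no member was among them. Array quality weights gave 2 calls for AZD1208 against parental and 1 for recurrent against parental. AZD1208 against parental had 0 to 1 calls with 1 sample left out, the 1 without vehicle 1. With array quality weights, AZD1208 minus vehicle became −0.24 for Tap2, −0.0108 for Psmb8 and −0.17 for Psmb9, Psmb8 became −0.0749 for AZD1208 against parental and −0.0695 for recurrent against parental, and H2-D1 became 0.0071 for recurrent against parental. Quantile normalization gave −0.0853 for the Tapbp and Zbtb22 probe set in vehicle against parental and −0.0189 for H2-K1 in recurrent against parental. Centring gave 0.0004 for Tapbp probe set 17343675 and 0.0006 for Psmb8 in vehicle against parental. The cause was not tested.

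With 1 sample left out in turn, AZD1208 minus vehicle ran from −0.15 to 0.0472 for B2m, −0.0273 to 0.53 for H2-K1, −0.18 to 0.29 for Tap2, −0.0298 to 0.49 for Tapbp, −0.0465 to 0.13 for Nlrc5, −0.0714 to 0.18 for Psmb9 and −0.0800 to 0.30 for Psmb10. Vehicle minus parental ran from −0.12 to 0.0625 for B2m, −0.16 to 0.0326 for H2-D1, −0.0232 to 0.0731 for the Tapbp and Zbtb22 probe set, −0.0431 to 0.0549 for Tapbp probe set 17343675, −0.17 to 0.0067 for Nlrc5 and −0.0853 to 0.13 for Psmb8. AZD1208 minus parental ran from −0.17 to 0.0124 for B2m, −0.15 to 0.41 for H2-K1, −0.0299 to 0.15 for H2-D1, −0.0386 to 0.0112 for Tap1, −0.15 to 0.0614 for Psmb9 and −0.26 to 0.0720 for Psmb10. Recurrent minus parental ran from −0.13 to 0.15 for H2-K1, −0.0602 to 0.0474 for H2-D1 and −0.0734 to 0.0289 for the Tapbp and Zbtb22 probe set.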

Other observations

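The high Ifnar1, Ifnar2 and Ifngr2 values of AZD1208 2 were read beside their neighbours on chromosome 16 (gene order from RefSeq, GRCm38.p6), a choice made after the values were seen. Ifngr2 was at 11.08 in that line, against 8.16 to 9.19 in the other 5 recurrent lines. Il10rb, a receptor chain for interleukins that lies among the interferon receptor genes, was at 10.18, against 8.39 to 9.26. Tmem50b was at 9.64, against 7.29 to 9.30, and Dnajc28 at 7.01, against 6.25 to 6.62. Gart, which follows Dnajc28, was at 11.13, within 10.85 to 11.66, and Olig1, beyond Ifnar2 on the other side, was at 6.86, within 6.75 to 7.50. The high values did not end there: of the 18 genes read in this stretch, 10 were higher in AZD1208 2 than in all other lines, beside 17.6% of all probe sets tested. The 10 include Ifngr2, Ifnar1 and Ifnar2, whose values prompted the choice of the stretch. Also among them, by small margins, were Paxbp1 (8.77, others up to 8.67), Synj1 (8.52, up to 8.47), Son (9.10, up to 8.92) and Itsn1 (9.19, up to 9.10). The difference between AZD1208 2 and the median of the other lines was 2.52 for Ifngr2, 1.29 for Il10rb, 1.22 for Ifnar2, 1.22 for Tmem50b, 0.73 for Paxbp1 and 0.62 for Ifnar1, while over all probe sets tested it had a median of −0.03 and a 95th percentile of 0.76.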
